A study of Homo sapiens with 12 samples.

Results

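The 10 genes described here are transcripts by which the output of the ERK branch of MAPK signalling is commonly read. They were chosen by name, with no threshold on any value, as 3 immediate early genes (FOS, FOSL1 and EGR1) and 7 feedback or target genes (DUSP4, DUSP6, SPRY2, SPRY4, ETV4, ETV5 and PHLDA1), of 25275 genes tested in all. Their levels were measured in Daoy cells, an established human line of medulloblastoma (MB), which grew either in conditioned medium of rat astrocytes (ACM) or in control DMEM. Cells were taken after the first 48 h passage (P1, 1 passage) or after P3, which is 3 such passages. Each of the 4 groups, P1 ACM, P1 DMEM, P3 ACM and P3 DMEM, held 3 arrays from independent experiments, and all cells were of this 1 line, with no other treatment named beyond an antibiotic-antimycotic in the medium. DMEM carried 10% fetal bovine serum, the astrocytes that conditioned the ACM grew in DMEM with the same share of serum, and these came from hippocampi of newborn Sprague Dawley pups. The comparison asks whether the RNA of these genes, as a readout of growth factor supply, differed between ACM and DMEM and between passages.

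Growth factors bind receptor tyrosine kinases at the cell surface, which switch on RAS and then the kinases RAF, MEK and ERK in turn. Active ERK phosphorylates transcription factors of the ETS family that sit with SRF on the promoters of immediate early genes, and FOS and EGR1 RNA then rises for a short time after a fresh stimulus, while other targets follow ERK activity over longer times. Several targets close a negative loop, because the DUSP proteins remove phosphate from MAP kinases and the Sprouty proteins act between the receptor and RAS. In the developing cerebellum and in MB, growth factor signalling of this kind acts next to the hedgehog pathway.

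To show the promoter sequence that such factors would meet, the 250 bases before the RefSeq start were read for 4 members (GRCh38.p14). FOS and EGR1 are shown as the immediate early pair, and SPRY2 and PHLDA1 because they hold an ETS core. FOS lies on the forward strand at chr14:75278578-75278827, EGR1 on the forward strand at chr5:138465229-138465478, SPRY2 on the reverse strand at chr13:80341127-80341376 and PHLDA1 on the reverse strand at chr12:76031777-76032026, each written 5′ to 3′ along its gene. Capitals mark a CArG box, the site of SRF, or the ETS core CCGGAA on either strand.
FOS: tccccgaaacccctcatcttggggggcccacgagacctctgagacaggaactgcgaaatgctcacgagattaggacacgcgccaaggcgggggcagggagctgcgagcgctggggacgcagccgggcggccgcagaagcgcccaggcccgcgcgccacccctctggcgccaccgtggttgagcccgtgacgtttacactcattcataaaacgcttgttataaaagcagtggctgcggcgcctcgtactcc
EGR1: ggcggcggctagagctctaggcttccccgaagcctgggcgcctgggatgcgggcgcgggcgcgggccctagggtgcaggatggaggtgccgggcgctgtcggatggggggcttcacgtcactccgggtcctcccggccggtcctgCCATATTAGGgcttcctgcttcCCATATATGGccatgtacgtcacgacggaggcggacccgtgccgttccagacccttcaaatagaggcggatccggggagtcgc
SPRY2: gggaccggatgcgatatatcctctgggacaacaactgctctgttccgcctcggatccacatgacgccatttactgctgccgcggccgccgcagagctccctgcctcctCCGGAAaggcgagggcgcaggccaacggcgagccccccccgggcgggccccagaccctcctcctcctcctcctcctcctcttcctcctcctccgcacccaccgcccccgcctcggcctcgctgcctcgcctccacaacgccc
PHLDA1: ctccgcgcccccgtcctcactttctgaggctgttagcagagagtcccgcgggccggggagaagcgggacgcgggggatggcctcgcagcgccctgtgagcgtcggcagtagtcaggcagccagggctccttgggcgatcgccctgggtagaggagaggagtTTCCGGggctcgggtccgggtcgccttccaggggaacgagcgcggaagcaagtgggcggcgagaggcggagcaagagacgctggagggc
EGR1 held 2 CArG boxes, which start 105 and 83 bases before the start. SPRY2 held an ETS core 142 bases before the most upstream of its 3 listed starts, and PHLDA1 held one on the other strand 89 bases before its start. Over windows that also take in 50 bases after the start, 1.29% of 35116 promoters held a CArG box, 17.2% the ETS core, 4.95% an AP-1 site (TGAGTCA or TGACTCA) and 1.85% a CRE (TGACGTCA), all searched on both strands. Of the 6 members with a window, 1 held a CArG box, 2 the ETS core and none (0) an AP-1 site or CRE. FOS, DUSP6 and SPRY4 held none (0) of the 4 motifs in these letters within the window, and FOSL1, DUSP4, ETV4 and ETV5 were not read. Sequence further upstream and other spellings of these sites were not read either, so a site there would be missed, for FOS too.

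The arrays were spread over 3 slides, with 4 on each. All of P1 ACM lay on slide 1, along with replicate 1 of P3 ACM. The remaining P3 ACM arrays shared slide 2 with replicates 1 and 2 of P1 DMEM, while replicate 3 of P1 DMEM sat on slide 3 beside all of P3 DMEM. No slide held ACM and DMEM of equal passage. The median signal of an array was 265.2 to 606.2, and the share of probes well above background was 74.2% to 80.2% on slide 2 and 88.1% to 94.6% on the other slides. A second deposited file, a table of processed values, conflicts with the labels of the scanner output: none (0) of its 12 columns ranked the probes most like the array of the same name, and 8 columns ranked them most like an array of the other medium. Each column had a Spearman correlation of at least 0.99997 with an array of another name, and of 0.953 to 0.992 with that of its own name. Which set of labels is right is not known, so the group of each array is in doubt. The labels of the scanner output are used below, and values under those of the table are given beside the calls of members and pathway genes that change. Every level below is log2 of a probe's signal minus the 75th percentile of its array, so that 0 stands for that percentile, and levels are compared between arrays for a probe and never between genes. In these bulk RNA samples a lower level in each cell and a smaller share of expressing cells cannot be told apart.

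As a check of the cells, VIM and GLI1, markers of neural progenitors and of hedgehog-type MB, were well above background on all 12 arrays, and of 10 such markers 7 were. ATOH1 reached that level on 2 arrays. Of the astrocyte markers, 4 of 7 were above background on all arrays, and the defining marker GFAP on at most 7 arrays. The summed signal of the 6 measured astrocyte markers, over the 75th percentile, was 3.50 to 5.50 in P1 ACM and 4.04 to 5.47 in P1 DMEM, and 3.31 to 5.56 in P3 ACM against 3.95 to 4.66 in P3 DMEM. The 5 measured microglia markers summed to 16.8 to 24.2 and 12.3 to 17.8 at P1 and to 14.3 to 21.8 and 9.91 to 12.1 at P3, in the same order. Their part in the values of the 10 genes was not tested.

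All 10 genes were well above background on all 12 arrays. SPRY4 had a pair of probes and the other 9 genes had 1 each, spotted once on each array. By signal, 6 members (FOSL1, EGR1, DUSP4, DUSP6, SPRY2 and PHLDA1) lay in the brightest of 3 equal bins of the genes tested, FOS, SPRY4, ETV4 and ETV5 in the middle bin, and none (0) in the dimmest. The bins shifted differently at P1, with a median log2 difference of ACM against DMEM of −0.08 in the brightest, 0.14 in the middle and 0.84 in the dimmest.

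In ACM at P1, none (0) of the 10 genes passed the thresholds of the study, more than 2-fold and an unadjusted p of 0.05 or less, while 13.6% of all genes did. That share moved with the processing, to 4.49% after quantile normalization, 0.863% after normexp, 2.1% with slide as a block and 4.48% of the genes above background on every array, and under the labels of the table it was 1.57%. By sign of the leading probe, 9 of the 10 were lower in ACM and DUSP4 was higher, where 36.1% of all genes were lower. The median difference was −0.36 over the members and 0.15 over all genes. The values over all genes take in the dimmest bin, where the median was 0.84 and no member (0) lay. No member (0) had an unadjusted limma p of 0.05 or less by its leading probe either, and the smallest adjusted p of a leading probe was 0.302. None (0) of the 25275 genes had an adjusted limma p of 0.05 or less, although 6069 had such an unadjusted p.

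DUSP6, the cytoplasmic phosphatase that acts on ERK, had the largest difference of the members at P1. Its level was 2.54, 1.83 and 1.31 in P1 ACM and 2.63, 2.21 and 3.35 in P1 DMEM. Of the ACM arrays 2 lay below all DMEM arrays, but the groups overlapped. The difference was −0.83 (SE 0.44, 95% interval −1.81 to 0.14, adjusted p = 0.302). The call turned on single arrays, since DUSP6 passed the thresholds without P1 ACM replicate 1 (−1.16) or without P1 DMEM replicate 2 (−1.09). DUSP4, a nuclear phosphatase of the same family, was at −0.03, 0.45 and −0.06 in P1 ACM and at −0.09, −0.01 and 0.07 in P1 DMEM. All but 1 of these lay within a narrow band around 0, and the difference was 0.13 (95% interval −0.36 to 0.61).

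SPRY2, an inhibitor between receptor and RAS, was at 0.08, 0.14 and −0.31 in P1 ACM and at 0.17, 0.24 and 1.24 in P1 DMEM. By the leading probes, SPRY2 was the only member whose P1 ACM and P1 DMEM arrays did not overlap, which was the case for 36.1% of all genes. The gap between the nearest arrays was small, and the difference of −0.59 (SE 0.47) had an adjusted p of 0.547. The exact permutation test gave p = 0.1, the smallest that 3 arrays against 3 allow. SPRY4, of the same family, was at −3.27, −2.96 and −3.00 in P1 ACM and at −3.34, −2.97 and −1.84 in P1 DMEM by its leading probe. Its other probe was at −2.48, −2.44 and −2.41 in P1 ACM and at −3.46, −3.50 and −3.14 in P1 DMEM. The probes thus disagreed, with −0.36 (SE 0.41) by the leading and 0.93 by the other. The other probe was also high, at −2.30, on P3 ACM replicate 1, the remaining array of slide 1, and was between −3.62 and −3.14 on the 8 arrays of slides 2 and 3, so its level moved with the slide.

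Among the immediate early genes, FOS, which pairs with JUN proteins in AP-1, was at −1.22, −3.13 and −1.73 in P1 ACM and at −1.58, −1.46 and −1.03 in P1 DMEM. P1 ACM replicate 2 had the lowest FOS level of all 12 arrays, and the difference was −0.67 (95% interval −2.16 to 0.82). EGR1, a zinc finger factor, was at 2.62, 1.48 and 1.40 in P1 ACM and at 1.82, 1.61 and 2.77 in P1 DMEM. Each group held 1 high array, and the difference was −0.24 (95% interval −1.21 to 0.74). FOSL1, a FOS relative whose RNA lasts longer after a stimulus, was at 0.00, 0.54 and −0.33 in P1 ACM and at −0.01, 0.49 and 0.87 in P1 DMEM, with a difference of −0.38 (95% interval −1.21 to 0.45).

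The ETS factors ETV4 and ETV5, which are transcribed in response to FGF and ERK signals, differed little at P1. ETV5 was at −0.87, −0.25 and −0.52 in P1 ACM and at −0.65, −0.19 and 0.29 in P1 DMEM, a difference of −0.37 (95% interval −1.29 to 0.56). ETV4 differed by −0.18 (95% interval −0.84 to 0.48) with overlapping arrays. PHLDA1, a PH-domain protein induced by growth factors, was at 1.50, 1.25 and 0.14 in P1 ACM and at 1.09, 1.05 and 1.47 in P1 DMEM. P1 ACM replicate 3 lay far below the other 5 arrays, and the difference was −0.24 (95% interval −1.16 to 0.68).

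**Figure D1:**
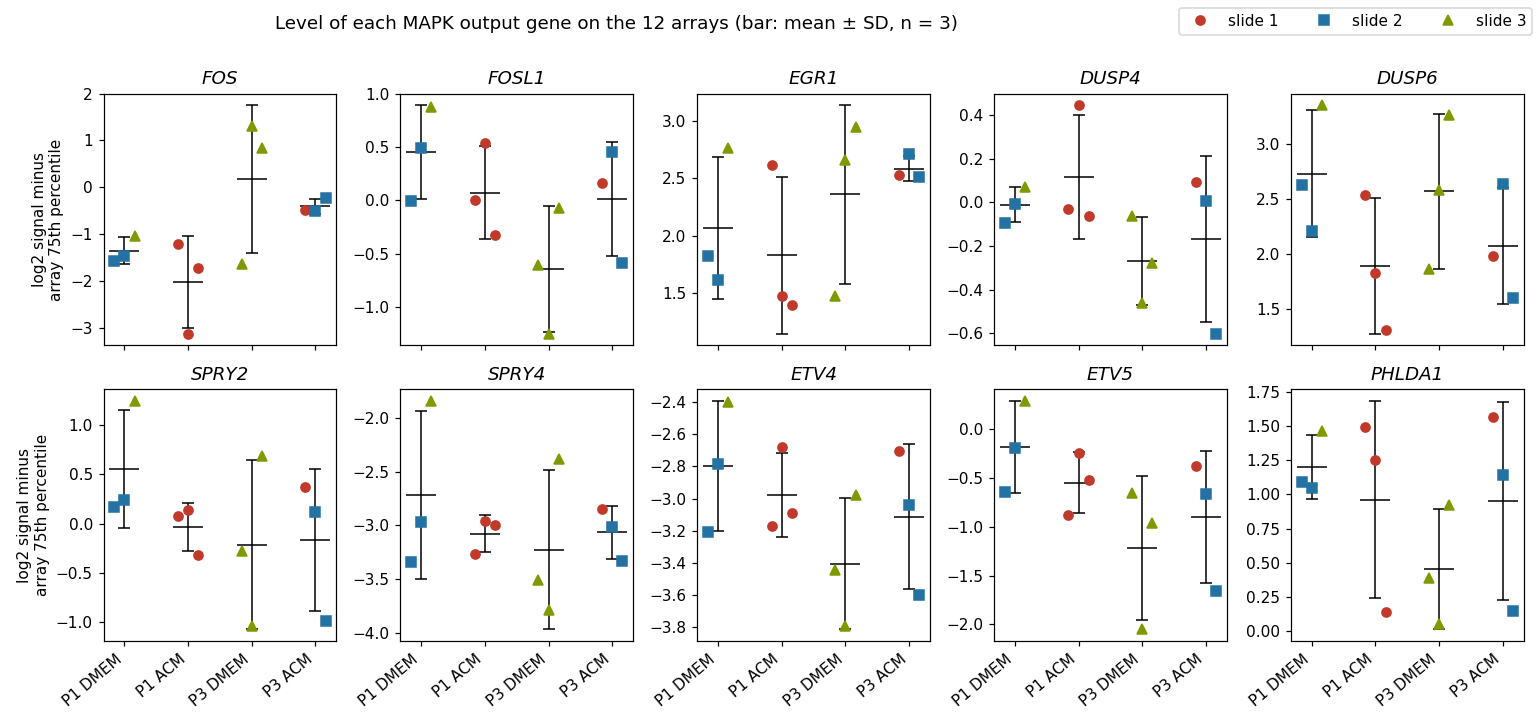
Level of the 10 genes (leading probe) on the 12 arrays. The y axis is log2 of the signal minus the 75th percentile of the array, with its own range for each gene, points are arrays with colour and shape by slide, and the bar is the mean ± SD of 3 arrays. The P1 DMEM array on slide 3 is the highest of the 12 for 6 genes, and FOS is highest on P3 DMEM replicates 2 and 3.

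At P3, again none (0) of the 10 genes passed the thresholds, against 1.73% of all genes. FOS and DUSP6 were lower in ACM and the other 8 were higher, where 49.6% of all genes were lower. The median difference was 0.19 over the members and 0.0029 over all genes. No member (0) had arrays of the media that did not overlap, against 9.78% of all genes, and the smallest adjusted p was 0.718. No unadjusted limma p (0) of a member was 0.05 or less.

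FOS was at −0.49, −0.51 and −0.24 in P3 ACM, a narrow band, and at −1.64, 1.32 and 0.83 in P3 DMEM, with 1 array below and 2 arrays above that band. The means were −0.41 ± 0.15 and 0.17 ± 1.59 (SD, n = 3), and the difference was −0.58 (95% interval −2.07 to 0.91). Without P3 DMEM replicate 1 it was −1.49 and passed the thresholds. Under the labels of the table, the difference of FOS at P3 was 2.72 (SE 0.60, adjusted p = 0.131). It passed the thresholds, as 6.11% of all genes did there, and its P3 ACM and P3 DMEM columns did not overlap. The direction of FOS at P3 thus depended on which labels were used.

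EGR1 was at 2.53, 2.71 and 2.52 in P3 ACM and at 1.48, 2.66 and 2.95 in P3 DMEM, so that the 3 ACM arrays again lay together inside the spread of DMEM. The difference was 0.22 (95% interval −0.75 to 1.20). DUSP6 was at 1.99, 2.63 and 1.60 in P3 ACM and at 1.86, 2.58 and 3.26 in P3 DMEM, a difference of −0.49 (95% interval −1.47 to 0.48). FOSL1 was at 0.16, 0.45 and −0.59 in P3 ACM and at −0.60, −1.25 and −0.07 in P3 DMEM. The difference of 0.65 (SE 0.38, 95% interval −0.18 to 1.48, adjusted p = 0.718) was the largest rise at P3, with overlapping arrays.

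The other 6 members differed by less than FOS and FOSL1 did at P3. PHLDA1 was at 1.57, 1.15 and 0.15 in P3 ACM and at 0.39, 0.05 and 0.92 in P3 DMEM, with a difference of 0.50 (95% interval −0.42 to 1.42). ETV5 differed by 0.32, ETV4 by 0.29, SPRY4 by 0.16, DUSP4 by 0.10 and SPRY2 by 0.05, and each 95% interval included 0. SPRY2 reached from −0.99 to 0.37 in P3 ACM and from −1.04 to 0.68 in P3 DMEM, which is wider than any difference between the groups of arrays.

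Over both passages, none (0) of the members passed the thresholds for the mean difference between media, against 3.98% of all genes. DUSP6 was lower in ACM by −0.66 (95% interval −1.35 to 0.03, adjusted p = 0.241), with an exact permutation p of 0.085 over 400 relabelings within passages. FOS was lower by −0.63 (95% interval −1.68 to 0.43), and the mean differences of the other 8 genes lay between −0.27 (SPRY2) and 0.14 (FOSL1) by their leading probes. The other probe of SPRY4, whose level moved with the slide, was higher by 0.62 and did not pass. Its 95% interval was 0.15 to 1.08, with an adjusted limma p of 0.150 and an exact permutation p of 0.04. For the change of the effect of ACM from P1 to P3, none (0) passed, against 6.86% of all genes. FOSL1 had the largest value, 1.03 (SE 0.53, 95% interval −0.14 to 2.20, adjusted p = 0.655), and it passed without any one of 4 arrays (P1 ACM replicate 2, P3 ACM replicate 3, P1 DMEM replicate 1 or P3 DMEM replicate 3). FOS passed for both by the table's labels, with a mean difference of 1.36 (SE 0.42, adjusted p = 0.131) and a change of 2.72 (SE 0.85, adjusted p = 0.919). Under those labels 2.35% of all genes passed for the mean and 1.91% for the change. SPRY4 and ETV4 passed for the change with slide as a block, against 2.83% of all genes.

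**Figure D2:**
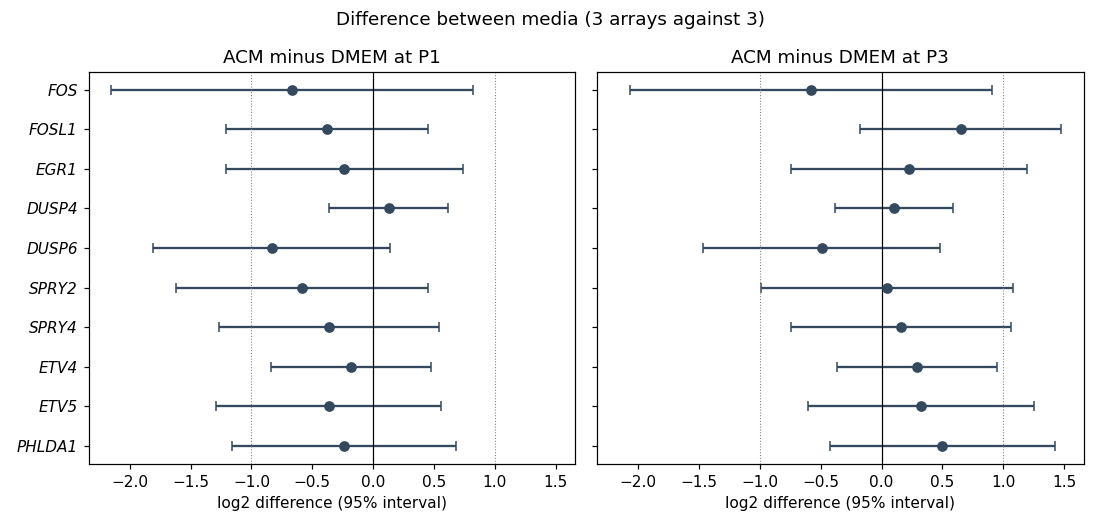
Difference of each gene (leading probe) between ACM and DMEM at P1 and at P3. The x axis is the log2 difference with its 95% interval from limma (3 arrays against 3), and dotted lines mark a 2-fold difference. Every interval includes 0, and 9 of 10 values lie below 0 at P1 and 2 of 10 at P3.

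Between passages in the control medium, some of these genes passed the thresholds of the study. In DMEM, 3 of the 10 passed from P1 to P3, FOS upwards and FOSL1 and ETV5 downwards, where 1.72% of all genes did. By sign, 8 of the 10 were lower at P3 and FOS and EGR1 were higher, where 41.3% of all genes were lower. The median was −0.56 over the members and 0.08 over all genes. FOSL1, ETV5 and PHLDA1 had P3 arrays that did not overlap with those of P1, which held for 19% of all genes. None (0) had an adjusted p of 0.05 or less.

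FOSL1 fell from 0.45 ± 0.44 at P1 to −0.64 ± 0.59 at P3 in DMEM (SD, n = 3), by −1.09 on the log2 scale or 2.13-fold (SE 0.38, 95% interval −1.92 to −0.27, adjusted p = 0.571). All 3 P3 arrays lay below all 3 P1 arrays. ETV5 fell from −0.18 ± 0.47 to −1.22 ± 0.74, by −1.04 or 2.06-fold (SE 0.42, 95% interval −1.97 to −0.11, adjusted p = 0.571), with levels of −0.65, −2.05 and −0.96 at P3 in DMEM. The nearest arrays of the passages, at −0.65 each, differed by less than the last digit shown. PHLDA1 was −0.75 lower (95% interval −1.67 to 0.18), SPRY2 −0.76 lower, ETV4 −0.61 lower and SPRY4 −0.51 lower, and these 4 did not pass. DUSP4 (−0.26) and DUSP6 (−0.16) differed least.

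Each of these falls leaned on a pair of arrays. P1 DMEM replicate 3 had the highest level of all 12 arrays for FOSL1, DUSP6, SPRY2, SPRY4, ETV4 and ETV5, and P3 DMEM replicate 2 had the lowest for FOSL1, SPRY2, SPRY4, ETV4, ETV5 and PHLDA1. Without P1 DMEM replicate 3 the difference of FOSL1 was −0.88 and that of ETV5 −0.80, and without P3 DMEM replicate 2 they were −0.79 and −0.62, none of which passed. ETV5 also missed the p threshold without P1 DMEM replicate 2, at −1.04. With the replicate number as a block, FOSL1 passed and FOS and ETV5 did not, and under the labels of the table FOSL1 was at −0.076 and ETV5 at −0.32, neither of which passed. The methods' t-test called none (0) of the members in DMEM. P1 DMEM replicate 3 was the only P1 array on slide 3. Within that slide, the mean of the 3 P3 DMEM arrays lay below it for 9 of 10 members. That count rests on this 1 high array and was not set against all genes. The mean difference was −1.51 for FOSL1 and −1.52 for ETV5, and FOS was higher by 1.20.

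FOS rose in DMEM from −1.36 ± 0.29 to 0.17 ± 1.59, by 1.53 or 2.89-fold (SE 0.68, 95% interval 0.04 to 3.02, adjusted p = 0.571). P3 DMEM replicates 2 and 3 lay above every P1 array and replicate 1, at −1.64, below them. The value was 0.96 without replicate 2 and 1.20 without replicate 3, neither of which passed, and 2.44 without replicate 1. It also missed the p threshold when any of 7 other arrays was left out, at 1.42 to 1.70. Under the labels of the table the difference in DMEM was −1.14 and did not pass.

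In ACM, FOS was the 1 member of 10 that passed from P1 to P3, against 7.51% of all genes. It rose from −2.03 ± 0.99 to −0.41 ± 0.15, by 1.62 or 3.07-fold (SE 0.68, 95% interval 0.13 to 3.11, adjusted p = 0.371). Its arrays did not overlap, which held for 6.81% of all genes, and the exact permutation test gave p = 0.1, the smallest possible. Under the labels of the table the rise in ACM was 1.58 and passed, against 0.805% of all genes. It did not pass without P1 ACM replicate 2 (1.07) or without any one P3 ACM array (1.53 to 1.67). Within slide 1, P3 ACM replicate 1 was 1.54 above the mean of the 3 P1 ACM arrays and above each of them. EGR1 was 0.75 higher at P3 in ACM (95% interval −0.22 to 1.73), which did not pass, and without P1 ACM replicate 1 it passed.

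The other 8 members changed little with passage in ACM by their leading probes, between −0.35 (ETV5) and 0.18 (DUSP6). The other probe of SPRY4 was at −0.70 (95% interval −1.35 to −0.05, adjusted p = 0.371) and did not pass. By sign, 6 of 10 were lower at P3, where 60.9% of all genes were. The median was −0.04 over the members and −0.10 over all genes. FOSL1, called in DMEM, differed by −0.06 in ACM (95% interval −0.89 to 0.77). The passage comparisons in the 2 media use different arrays, and the test of their difference is that of the change in the effect of ACM given above, which no member passed.

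**Figure D3:**
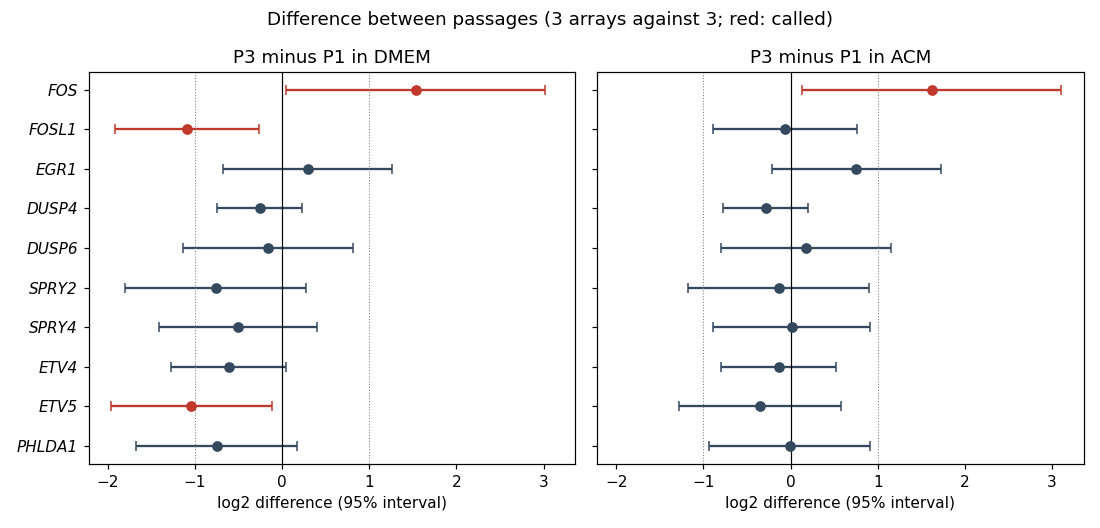
Difference of each gene between P3 and P1 in DMEM and in ACM. The x axis is the log2 difference with its 95% interval from limma, dotted lines mark a 2-fold difference, and red marks genes past the thresholds of the study. FOS lies above 0 in both media (1.53 and 1.62), and FOSL1 (−1.09) and ETV5 (−1.04) lie below 0 in DMEM.

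With slide as a fixed block, the calls between passages changed. In DMEM, 5 members passed (FOSL1, SPRY2, SPRY4, ETV4 and ETV5, all lower), against 1.95% of all genes, and FOS at 1.20 did not. In ACM none (0) passed, against 0.502% of all genes. For the change of the effect of ACM, 2 members passed (SPRY4 and ETV4), against 2.83% of all genes. With slide as a block the P3 difference of EGR1 was 1.30, that of SPRY4 1.36 and that of FOSL1 1.21, and none of these passed. At P3 such a fit takes the difference within slide 2 minus that within slide 3, and so each of these values hangs on P1 DMEM replicate 3. In DMEM it takes the difference within slide 3, so the 5 calls there hang on that array too. The change is the difference within slide 1 minus that within slide 3, and hangs on P3 ACM replicate 1 and P1 DMEM replicate 3. At P1 the fit uses slides 1 and 2, and hangs on P3 ACM replicate 1. On slide 2, the 2 P3 ACM arrays set against P1 DMEM replicates 1 and 2 were lower for 8 members and higher for FOS (1.15) and EGR1 (0.89), and in that comparison medium and passage cannot be told apart. The share of all genes lower in it was not computed, so the count says nothing particular to these members.

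**Figure D4:**
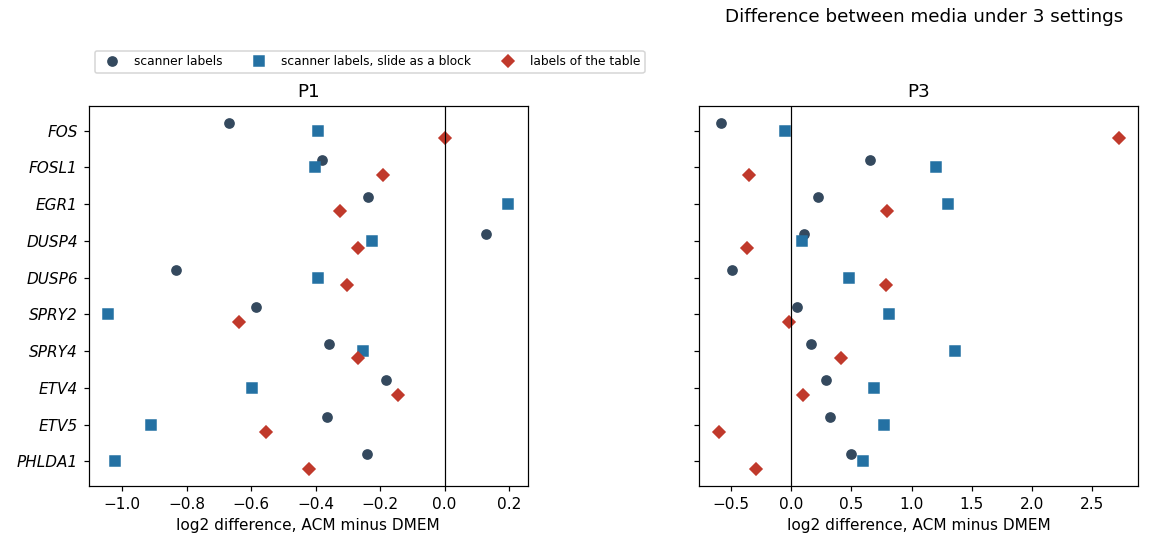
Difference between ACM and DMEM at P1 and at P3 under the labels of the scanner output, under the same labels with slide as a block, and under the labels of the table. The x axis is the log2 difference, and the 2 panels have different ranges. FOS at P3 is −0.58 under the scanner labels and 2.72 under those of the table.

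Across the 12 arrays, the members fell into 2 patterns. Among the 8 genes other than FOS and EGR1, 27 of 28 pairs had a Pearson r above 0, with a median of 0.74 and a range of −0.04 (DUSP4 with DUSP6) to 0.93 (FOSL1 with ETV4). FOS and EGR1 had an r of 0.77 with each other, and a median of −0.14 with the other 8, down to −0.76 for FOS with DUSP4. DUSP6, counted among the 8, did not fall clearly into either pattern. Its r was −0.04 (DUSP4) to 0.61 (SPRY2) with the rest of the 8, 0.67 with EGR1 and 0.44 with FOS. Once each array was set against the mean of its group, the medians were 0.72 among the 8 and 0.04 for FOS or EGR1 with the 8. The likeness among the 8 was thus also present between arrays of the same group. The negative median of FOS or EGR1 with the 8 was not. Pairs of all 15519 genes well above background on every array had a median r of 0.0027. These are descriptions of 12 arrays that share slides and scaling.

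The arrays show what these values rest on. On P1 DMEM replicate 3 all 8 of these genes were above their mean over the arrays, with a median of 0.95, and on P3 DMEM replicate 2, 1 of 8 was, with a median of −0.80. On P3 ACM replicate 3 none (0) of the 8 was, with a median of −0.64. FOS and EGR1 were high (a median of 1.34) on P3 DMEM replicate 2 and 0.49 above their mean on P3 ACM replicate 3. The median of the genes well above background on all arrays was within 0.07 of 0 on each array.

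**Figure D5:**
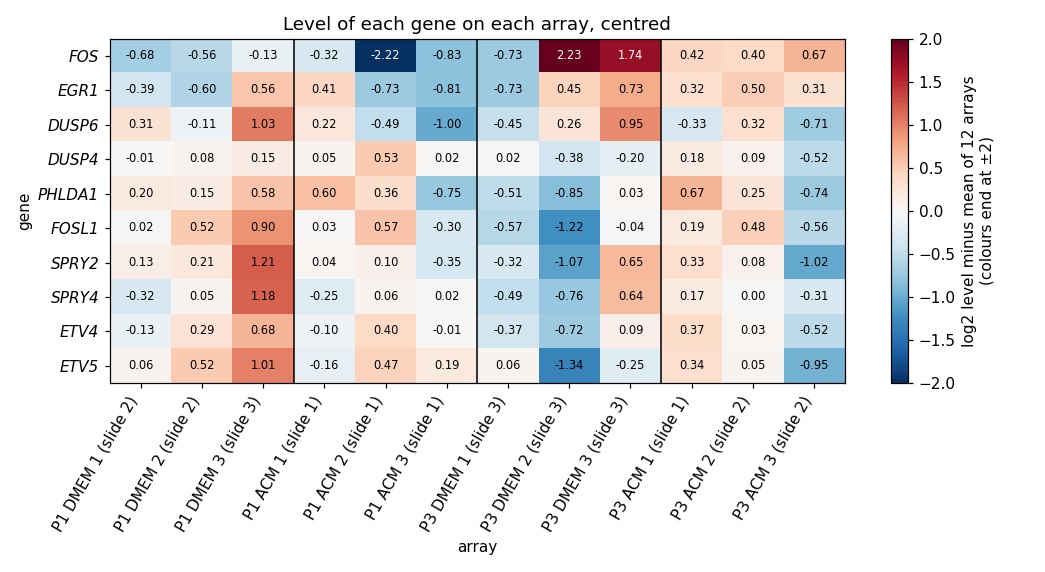
Level of each gene on each array minus its mean over the 12 arrays, on the log2 scale, with arrays ordered by group and the slide in brackets. Colours run from blue (low) to red (high) and end at ±2. The 6 genes from PHLDA1 to ETV5 are high on P1 DMEM replicate 3 and low on P3 DMEM replicate 2, where FOS is at 2.23.

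The genes whose levels were most alike a member over the 12 arrays came from outside the list in each case, among 15519 genes. SH2B3 was most like FOSL1 (r = 0.97), PTGS2 most like SPRY2 (0.97), CLDN1 most like ETV4 (0.97), TXNRD1 most like ETV5 (0.97), LDAF1 most like SPRY4 (0.96) and ITGA2 most like PHLDA1 (0.96). SRC was most like DUSP4 (0.96), EVI5 most like FOS (0.97), SAT1 most like EGR1 (0.89) and ITGAV most like DUSP6 (0.88). Of the members themselves, ETV4 ranked at place 14 for FOSL1, FOSL1 at place 11 for ETV4 and FOS at place 24 for EGR1, while ETV5 ranked only at place 617 for DUSP4.

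The rest of the pathway was read from 6 lists of 111 genes, of which 110 were measured and 100 were well above background on all arrays. At P1, 4 of the 110 passed the thresholds, all higher in ACM, against 13.6% of all genes, and none (0) of the 100 bright ones did. At P3, none (0) passed upwards and 2 of the 110 passed downwards, against 1.73% of all genes in either direction. Of the 22 genes of the core from GRB2 to the RSK kinases, none (0) passed in any of the 4 comparisons, and the same held for the 22 other immediate early genes such as JUN, MYC and NR4A1. The medians of these lists were −0.13 and −0.18 at P1 and 0.03 and 0.12 at P3.

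Of 23 growth factor ligands, PDGFD, a ligand of the PDGF receptor, and HGF, the ligand of MET, passed at P1, both higher in ACM. HGF differed by 1.13 (SE 0.35, adjusted p = 0.104). PDGFD did not stand clear of background on the P1 DMEM arrays (0 of 3) and was at least 1.15-fold higher in ACM, which sets its measured signal against the lowest signal above background. Of 15 receptor tyrosine kinases, KIT, the receptor of stem cell factor, was at least 1.42-fold higher in P1 ACM on the same basis, and ERBB4, a receptor of neuregulins, differed by 1.82 (SE 0.47, adjusted p = 0.103) with 2 of 3 P1 DMEM arrays above background. These 4 genes are dim. PDGFD and KIT were kept by the filter on signal only through P1 ACM, the group where they were high. Their calls at P1, which the count of 4 above takes in, are therefore no test of a difference. KIT reached −5.48 on P3 ACM replicate 1, the remaining array of slide 1, and was between −8.10 and −7.19 on the arrays of slides 2 and 3, so its level moved with the slide. HGF was between −4.49 and −3.55 and ERBB4 between −3.57 and −2.66 on the 4 arrays of slide 1, and every array of slides 2 and 3 lay lower, so these levels moved with the slide too. None (0) of these 4 genes passed at P1 once slide was a block, with 0.16 for HGF, 0.43 for ERBB4, 0.04 for PDGFD and −0.32 for KIT. These blocked values hang on P3 ACM replicate 1. By the table's labels HGF was at −0.22 and ERBB4 at −0.81, and KIT, read there through another probe, at 0.50, none of which passed, and PDGFD was not read there.

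At P3, IL17RD, which encodes Sef, an inhibitor of FGF and ERK signalling, was lower in ACM. Its level was −1.22, −0.55 and −0.25 in P3 ACM and 1.00, 1.76 and 0.80 in P3 DMEM, so that all ACM arrays lay below all DMEM arrays. The difference was −1.86 (SE 0.35, adjusted p = 0.479), and −1.79 with slide as a block, a value that hangs on P1 DMEM replicate 3. Under the labels of the table it was 1.18 and did not pass. At P1 it was −0.63 (SE 0.35, adjusted p = 0.324). IL17RD was the 1 of the 21 measured genes in the list of other ERK targets and feedback genes that passed at P3.

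IGF1, a ligand of the IGF1 receptor, was the other gene that passed at P3. It was at −1.90, −3.00 and −3.31 in P3 ACM and at −1.0, −1.16 and −1.22 in P3 DMEM, and the difference was −1.61 (SE 0.42, adjusted p = 0.612). With slide as a block it was −0.56 and did not pass, and under the labels of the table it was 0.21. IGF1 instead passed at P1 by the table's labels, at −1.46. IGF1 was between −3.31 and −3.00 on the 4 arrays of slide 2 and between −1.90 and −1.0 on the other 8, whichever the medium.

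CCND1, the cyclin that growth factors induce in G1, also fell with passage in DMEM. It was at 2.05, 2.36 and 2.35 in P1 DMEM and at 1.11, 0.74 and 1.65 in P3 DMEM, with no overlap, and fell by −1.09 (SE 0.30, adjusted p = 0.571). At P1 it differed between media by −0.39 and at P3 by 0.62, neither of which passed. EPHA2, an ephrin receptor and ERK target, fell in DMEM by −1.04 (SE 0.40, adjusted p = 0.571) with overlapping arrays, and EPHA4 differed by 0.67 there and did not pass. In DMEM, 2 of the 110 pathway genes passed upwards (IGF1 and IL17RD) and 4 downwards (CCND1, EPHA2, HBEGF and ELK1), against 1.72% of all genes in either direction. HBEGF, a ligand of the EGF receptor, fell by −1.49, and ELK1, an ETS partner of SRF, by −1.60. HBEGF and ELK1 are named here after their values were seen. None (0) of these 6 passed in DMEM by the table's labels, with 0.08 for CCND1, −0.19 for EPHA2, 0.16 for HBEGF, −0.35 for ELK1, −0.43 for IL17RD and −0.33 for IGF1. ELK1 (−1.50) and IGF1 (0.53) did not pass with slide as a block, and the other 4 did, in values that hang on P1 DMEM replicate 3. In ACM, 2 of the 110 passed downwards from P1 to P3 (HGF and KIT), both of them among the dim genes above, against 7.51% of all genes. KIT was kept by the filter only through P1 ACM, so its fall from P1 to P3 in ACM is no test either. By the table's labels HGF was at 0.39 and KIT at 0.25 there, and with slide as a block at −0.51 and 0.30, and neither passed. IGF1 passed there under the labels of the table, at 1.33.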

How the data were processed

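Single-colour Agilent 4 x 44K arrays were used. The authors deposited the scanner output of each array, in which the intensity of each spot is background-corrected by Agilent Feature Extraction 11.0.1.1 and not normalized between arrays, and a table of log2 values of 30569 probes, which the authors had normalized by a method not given in the sources used here. The columns of that table disagree with the scanner labels, so it was used only as an alternative.

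Control spots (1377 of 44495) and outlier spots were left out, log2 intensities of a probe averaged, and each array's 75th percentile subtracted. Probes well above background on all arrays of at least 1 group were kept (31078 of 34127), and a gene was read through its probe with the highest mean log2 signal. Of the probes, 25771 (75.5%) were named by matching accessions to RefSeq (GRCh38.p14). The 4 groups were fitted together with limma 3.58.1 in R 4.3.3 (8 residual degrees of freedom), two-sided, with Benjamini-Hochberg adjustment over all kept probes. A gene was called past 2-fold at an unadjusted p of 0.05 or less, the thresholds of the study. The number of arrays limits the precision. The fit was tested on simulated data with independent noise, a spread capped at its median and no slide effect. That test cannot show how the fit behaves where slide and medium are mixed.

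Members and lists were chosen with earlier results of these data known. All members were described. Pathway genes were named where they passed at P1 or P3 without overlap of the arrays, with CCND1, EPHA2 and EPHA4 in addition. Slides were taken from shared scan times in the headers. The labels number the replicates alike, and at P1 the deviations of same-numbered samples had correlations of 0.43, 0.19 and 0.27, which pairs the P1 samples by the rule used (over 0.1 for every number), while at P3 they were 0.23, −0.19 and 0.06. Alternatives were quantile normalization, normexp (offset 50, on the median signal of a spot), the table, no filter or a stricter filter on signal, the replicate block, slide as a fixed or random block, a fit of the compared arrays alone, robust eBayes with a trend, the methods' t-test, averaged probes for genes with several, and leaving out each array. The other probe of SPRY4, and the alternatives for single genes between passages and for the named pathway genes, were added after seeing the data. Figures were drawn with matplotlib 3.10.9.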

Additional observations from a re-analysis of the deposited data

How the results depend on the processing

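In the fit without a block, no leading probe of a member that differed by under 2-fold had an unadjusted limma p of 0.05 or less. Over all genes at P3, 1839 had such a p and 438 of them also passed 2-fold. With 3 arrays a group, the counts of called members moved with single arrays. With each array left out in turn they ranged from 0 to 1 for ACM against DMEM at P1, from 0 to 1 at P3, from 0 to 1 for the mean of both and for the change between passages, from 0 to 3 for P3 against P1 in DMEM and from 0 to 2 in ACM. The share of all genes called moved as well. It ran from 9.59% to 15.9% at P1, from 1.18% to 4.97% at P3 and from 1.45% to 7.21% for the mean. For the change it ran from 3.16% to 18.9%, in DMEM from 0.57% to 3.93% and in ACM from 1.18% to 19.3%. Under the labels of the table, 1 member was called at P3, 1 for the mean and 1 for the change, FOS in each case, and 0 for P3 against P1 in DMEM. Of all genes, 6.11% passed under those labels at P3, 2.35% for the mean, 1.91% for the change and 0.567% in DMEM. The methods' t-test called 0 members in DMEM, slide as a fixed block 5 there, 2 for the change and 0 in ACM, and slide as a random block 0 in ACM. With slide as a fixed block, 1.95% of all genes passed in DMEM, 2.83% for the change and 0.502% in ACM. The share was 1.02% in DMEM by the t-test, 0.546% in ACM with the random block and 2.09% in DMEM with the replicate block. With the replicate block, 1 member (FOSL1) was called in DMEM in place of 3, since FOS (1.53) and ETV5 (−1.04) missed the p threshold, and the block changed no other call. The other 60 counts under the alternatives that keep all arrays were within 1.5 times the count given.

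Signs turned in these cases. Under the labels of the table, at P1, FOS was 0.0011 and DUSP4 −0.27, and at P3 FOS was 2.72, FOSL1 −0.35, DUSP4 −0.37, DUSP6 0.78, SPRY2 −0.021, ETV5 −0.60, PHLDA1 −0.29, IL17RD 1.18 and IGF1 0.21, while FOS in DMEM was −1.14. With slide as a fixed block, EGR1 at P1 was 0.20, DUSP4 at P1 −0.23 and DUSP6 at P3 0.48, and with a random block DUSP4 at P1 was −0.013. SPRY4 was 0.28 at P1 with the mean of its probes, 0.93 with its other probe, and −0.052 at P3 after normexp. With arrays left out, the values at P1 ranged from −0.63 to 0.11 for EGR1, from −0.037 to 0.22 for DUSP4, from −0.67 to 0.076 for SPRY4, from −0.39 to 0.016 for ETV4 and from −0.51 to 0.17 for PHLDA1. At P3 they ranged from −0.22 to 0.52 for EGR1, from −0.029 to 0.32 for DUSP4, from −0.37 to 0.49 for SPRY2, from −0.12 to 0.58 for SPRY4 and from −0.095 to 0.70 for ETV5. Values under the labels of the table compare other sets of arrays, since each of its columns matched an array of another name. What turned the other signs was not tested.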
